A study of Mus musculus with 39 samples.

Results

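The genes described here are 40 cell cycle and mitosis genes, measured among 38293 genes by RNA sequencing of the mouse left ventricle. They were chosen by symbol from textbook roles in the cell cycle, with earlier results of these data known. All 40 matched a gene identifier in the count table. They comprise 2 general markers of proliferation, 4 G1 cyclins and kinase, 2 inhibitors of cyclin-dependent kinases, 2 transcription factors, 9 genes of DNA replication, 4 S and M phase cyclins and kinase, 7 mitotic kinases and checkpoint proteins, 7 spindle and cytokinesis genes and 3 genes of mitotic exit. All 40 passed the filter on low counts in every comparison.

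A cell enters division when D-type and E-type cyclins activate their kinases in G1, which releases E2F factors to switch on the genes of DNA replication. Cyclin A, cyclin B and Cdk1 then drive S phase and mitosis, and the mitotic genes are switched on late, largely through the MuvB complex with B-Myb and FoxM1, whereas in resting cells the DREAM form of MuvB keeps them off, and p21 and p18 hold the kinases back. In the mouse heart most cardiomyocytes stop dividing soon after birth, whereas fibroblasts, endothelial cells and leukocytes can still divide.

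The study compared mice that carry the R14del variant of phospholamban (Pln, the inhibitor of the sarcoplasmic reticulum calcium pump) with wild type mice, and with wild type mice after surgery on the coronary artery. All animals were of strain C57BL6/J. Wild type and homozygous R14del/R14del ventricles were sampled at 3, 5 and 8 weeks of age and heterozygous wt/R14del ventricles at 8 weeks, without surgery, with 4 libraries per group but 3 for wild type at 8 weeks. Surgery was done on wild type males aged 12 weeks. The left anterior descending coronary artery was tied temporarily (ischemia-reperfusion, sampled after 3 days) or permanently (myocardial infarction, sampled after 8 weeks at 20 weeks of age), and the tissue came from the area remote from the infarct. The 4 sham-operated mice were aged 12 weeks (replicates 1 and 4) or 20 weeks (replicates 2 and 3). Gene-level counts do not show the deletion, so they check no genotype label.

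Libraries held 9402900 to 19320800 counts assigned to genes (rounded to 6 digits), and those of the 5 week groups (9784770 to 11984600) were shallower than those of the 3 and 8 week groups (13065200 to 19320800). Levels are given in CPM, the counts of a gene scaled to a library total of 1000000. Fold changes and adjusted p-values come from edgeR's quasi-likelihood test over all genes after TMM scaling, so that fold changes need not equal a ratio of CPM means. Errors of log2 fold changes are standard errors. Scaling by library size alone raised the median log2 change over all genes from 0 to 0.21 in homozygous hearts at 5 weeks and from -0.02 to 0.21 after ischemia-reperfusion. Overlap between groups is judged throughout on CPM, without TMM scaling. It carries such shifts and is no separate support for the calls. Nothing in the labels says more of the replicates than that they are separate samples, and the p-values cover only the spread among them, which may be technical. The 10 cardiomyocyte marker genes summed to 34700 to 92100 CPM over the libraries, and none of them was at 0 in any group. In bulk tissue, fewer cells of a type and less RNA per cell cannot be told apart. Counts for Ccnb1, Ccnb2, Pcna and Tyms are uncertain, because near-identical pseudogenes share their sequence.

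Some libraries stood apart from their group over many of the 40 genes. The mean log2(CPM + 1) of the 7 mitotic kinases and checkpoint genes was 1.35, 2.57, 1.79 and 1.99 in the wild type libraries at 3 weeks, with replicate 2 highest, and 1.02, 1.43, 1.97 and 1.08 in the homozygous ones, with replicate 3 highest. At 5 weeks homozygous replicate 4 stood at 3.04 against 1.71, 2.32 and 1.73 in the other libraries of its group. At 8 weeks homozygous replicate 4 stood at 1.99 against 1.24, 1.3 and 1.17. Results that rest on these libraries are given with and without them.

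The promoters of the members were read from RefSeq for GRCm38.p6, over 300 bases from 250 before to 50 after each gene's start, and searched on both strands for 3 sets of letters. Of the 40 members 33 had an entry, and Ccna2, Tpx2, Foxm1, Ccnd2, Aurkb, Ccnd1 and Kif20a had none in the table used. The letters of the cell cycle homology region (CHR, TTTGAA), which the MuvB complex is known to bind, occurred in 17 of 33 members (51.5%) and in 20.2% of all 27025 genes in the table. They occurred in 15 of 19 members with mitotic roles or used as proliferation markers (78.9%), in 2 of 9 DNA replication members (22.2%) and in 0 of the 5 others. CCAAT, the letters that NF-Y binds, occurred in 25 of 33 members (75.8%) and in 41.1% of all genes. E2F-like letters (TTTCCCGC, TTTGGCGC or TTTCGCGC) occurred in 4 of 33 members (12.1%), of which 3 were DNA replication genes, and in 2.12% of all genes. A match is a description of letters, not a site that was shown to be bound.

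Stretches around these letters are printed for the 8 members with CHR letters that had the largest changes in homozygous hearts at 5 weeks, since those are the mitotic genes the later comparisons return to. Each is written 5′ to 3′ on the strand of its gene in GRCm38.p6, with CHR and CCAAT letters of either strand in capitals. Anln lies at chr9:22389164-22389193 (minus strand), Plk1 at chr7:122159453-122159482 (plus strand), Cdca3 at chr6:124830194-124830223 (plus strand), Aurka at chr2:172370521-172370550 (minus strand) and Bub1b at chr2:118598231-118598260 (plus strand). Cdca8 lies at chr4:124936898-124937012, Mki67 at chr7:135716360-135716577 and Ccnb2 at chr9:70421535-70421731, all on the minus strand.
Anln: cgctgaaaTTCAAAtTTTGAAcggccgtgg
Plk1: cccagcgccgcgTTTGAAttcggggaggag
Cdca3: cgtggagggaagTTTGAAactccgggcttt
Aurka: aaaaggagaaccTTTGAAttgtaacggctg
Bub1b: ctgcgtcaagagacgttaaaTTTGAAactt
Cdca8: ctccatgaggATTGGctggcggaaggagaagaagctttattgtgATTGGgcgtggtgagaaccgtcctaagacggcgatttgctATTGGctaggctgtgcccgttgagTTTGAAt
Mki67: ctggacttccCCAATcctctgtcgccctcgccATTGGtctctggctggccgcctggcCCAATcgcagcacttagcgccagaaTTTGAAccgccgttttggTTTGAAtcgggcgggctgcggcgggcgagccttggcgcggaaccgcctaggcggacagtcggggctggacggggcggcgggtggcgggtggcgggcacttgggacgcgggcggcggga
Ccnb2: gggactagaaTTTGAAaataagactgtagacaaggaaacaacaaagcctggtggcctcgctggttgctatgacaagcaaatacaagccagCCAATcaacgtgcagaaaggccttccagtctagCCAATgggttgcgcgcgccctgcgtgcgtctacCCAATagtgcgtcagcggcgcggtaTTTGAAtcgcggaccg
In Plk1, Cdca3, Aurka, Bub1b and Cdca8 the letters TTTGAA lie just after the start, whereas Mki67 holds them at 116 and 98 bases before it and Ccnb2 on either side of it. Anln carries the letters of both strands 1 base apart.

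Across the 10 groups the level of Mki67 (the Ki-67 protein, present in cycling cells, ENSMUSG00000031004, chr7:135689784-135716361) was lowest in shams and highest after ischemia-reperfusion. Mean Mki67 was 4.48 ± 1.54 CPM in shams (SD, n = 4), 6.81 ± 1.67 in heterozygous hearts at 8 weeks (SD, n = 4), 6.84 ± 5.05 in homozygous hearts at 8 weeks (SD, n = 4) and 6.96 ± 1.48 in wild type hearts at 8 weeks (SD, n = 3). It was 8.41 ± 6.8 in homozygous hearts at 3 weeks (SD, n = 4) and 9.18 ± 1.62 after infarction (SD, n = 4). The highest means were 15.8 ± 3.88 in wild type at 5 weeks, 17.5 ± 9.43 in wild type at 3 weeks, 29.3 ± 18.2 in homozygous hearts at 5 weeks and 36.2 ± 12.3 after ischemia-reperfusion (SD, n = 4 each). Neighbours in this order overlapped in their single libraries at every step except between infarction (7.94 to 11.4) and wild type at 5 weeks (12.3 to 19.8). The order was not tested. Sample identifiers follow different styles in the 3 and 8 week, the 5 week and the surgery libraries. Age, surgery and library handling cannot be told apart between these sets.

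**Figure D1:**
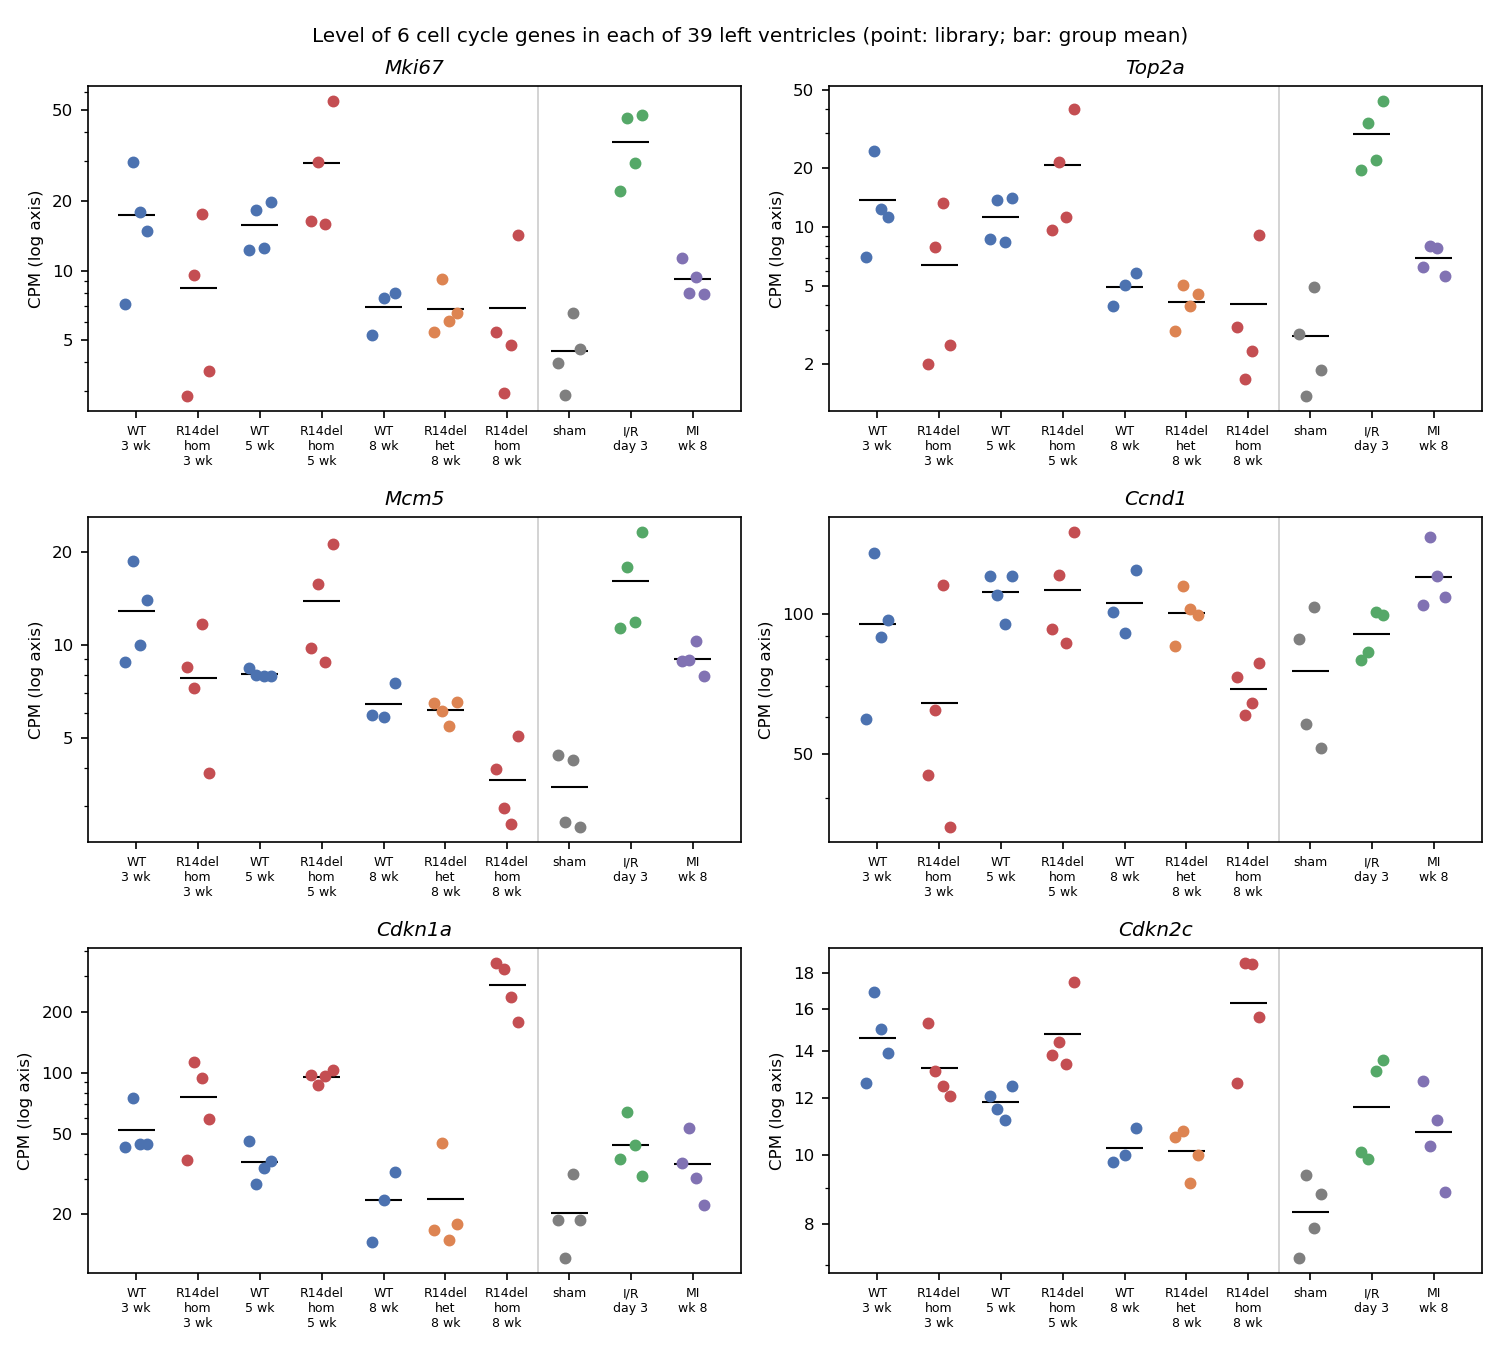
Levels of Mki67, Top2a, Mcm5, Ccnd1, Cdkn1a and Cdkn2c in CPM on a log axis, with 1 point per library and a bar at each group's mean. Mki67 and Top2a are highest after ischemia-reperfusion and lowest in shams, while Cdkn1a is highest in homozygous hearts at 8 weeks, at 178 to 350.

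In wild type hearts many mitotic genes and some replication genes were lower at 8 than at 3 weeks of age, while none of the G1 cyclins passed the test. Of the 40 members 26 were lower at 8 weeks and 0 were higher, with a median log2 change of -1.13 against -0.01 over all genes, where 16.2% of the genes tested were called, 7.81% lower and 8.44% higher. Mki67 was 7.14, 29.8, 18 and 14.8 CPM at 3 weeks and 5.27, 7.59 and 8.02 CPM at 8 weeks. The groups overlapped in 1 library, wild type replicate 1 at 3 weeks, and Mki67 fell 2.47-fold (log2 -1.31 ± 0.32, edgeR adjusted p = 0.00995). Top2a, the topoisomerase that untangles DNA for mitosis, was 7.07, 24.5, 12.4 and 11.3 CPM at 3 weeks and 3.97, 5.06 and 5.83 CPM at 8 weeks. Its groups did not overlap (log2 -1.46 ± 0.31, edgeR adjusted p = 0.0039).

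By role, the calls with age were as follows. Among the 4 S and M phase members Ccna2, Ccnb2 and Cdk1 fell (median over the 4 -1.40), among the 7 mitotic kinases and checkpoint genes 6 fell (median -1.32) and among the 7 spindle genes 5 fell (median -1.18). Bub1, a kinase of the spindle checkpoint, had the largest fall, from 0.643, 3.31, 1.39 and 1.53 CPM at 3 weeks to 0.326, 0.362 and 0.137 CPM at 8 weeks (log2 -2.54 ± 0.59, edgeR adjusted p = 0.00723). Its groups did not overlap, and all 3 libraries at 8 weeks stood below the lowest at 3 weeks. The Bub1 levels at 8 weeks rest on 6, 6 and 2 counts, so the size of its fall is uncertain. Plk1, which drives entry into mitosis, and Cdca3, a trigger of mitotic entry, both fell by 1.70 (edgeR adjusted p = 0.00901 for each). Of the 9 replication genes Mcm2, Mcm3, Mcm5 and Mcm6, which encode subunits of the replicative helicase, and Rrm2, a subunit of ribonucleotide reductase, fell (median over the 9 -0.60), while Pcna, Rrm1, Tyms and Cdc45 were not called. Of the 3 mitotic exit genes Cdca3 alone was called.

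Both inhibitors fell with age as well, and the transcription factors E2f1 and Foxm1 did too. Cdkn1a, which encodes the kinase inhibitor p21 (ENSMUSG00000023067, chr17:29090976-29100727), was 43.1, 75.6, 44.7 and 44.5 CPM at 3 weeks and 14.6, 23.7 and 32.4 CPM at 8 weeks (log2 -1.13 ± 0.22, edgeR adjusted p = 0.0021). Cdkn2c, which encodes p18 and blocks Cdk4 and Cdk6, went from 12.6 to 16.9 CPM at 3 weeks to 9.78 to 10.9 CPM at 8 weeks (log2 -0.49 ± 0.11, edgeR adjusted p = 0.00438). The groups of both inhibitors did not overlap. Ccnd1, cyclin D1, had a log2 difference of 0.18 ± 0.17, and Ccnd2, Ccne1 and Cdk4 had -0.07, -0.36 and -0.11, none past the test.

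The 2 steps of this decline were called in different members, though the steps themselves were not compared. From 5 to 8 weeks 9 of 40 fell and 0 rose, with 25.4% of all genes called and 12.6% called lower: Bub1, Prc1, Ccna2, Mki67, Top2a, Cdk1, Tpx2, Ccnb2 and Rrm2. Ccna2, cyclin A2, was 5.51, 8.04, 4.33 and 8.01 CPM at 5 weeks and 2.55, 3.19 and 1.92 CPM at 8 weeks, with no overlap (log2 -1.30, edgeR adjusted p = 0.00779). From 3 to 5 weeks 5 of 40 fell and 0 rose, with 31.7% of all genes called and 15.8% called lower: Plk1 (log2 -1.45 ± 0.39), Mcm5 (-0.67), Cdc45 (-0.62), Mcm2 (-0.52) and Cdkn2c (-0.30). That share of the 40 is no larger than the background.

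These age comparisons rest on few libraries and on the fit. With all 39 libraries in 1 fit, 0 members were lower from 5 to 8 weeks, 2 from 3 to 5 weeks and 8 from 3 to 8 weeks. The members' medians in that fit were -0.61, -0.33 and -1.12. Calls over all genes fell there too, from 3512 to 2515, from 4380 to 3397 and from 2245 to 1254. Without 1 library the count of members lower from 3 to 8 weeks was 16 without wild type 3 week replicate 2, 14 without 8 week replicate 1 and 13 without 8 week replicate 2. From 5 to 8 weeks it was 5 without 5 week replicate 4 or 8 week replicate 2, and 2 (Bub1 and Ccna2) without 8 week replicate 1. From 3 to 5 weeks it was 16 without 3 week replicate 1, 3 without 3 week replicate 4, and 2 (Mcm5 and Plk1) without 3 week replicate 2 or 5 week replicate 3. Without 3 week replicate 2, Ccnd1 was also called higher at 5 weeks. Each of these fits without 1 library also called fewer genes over the whole table. Sample identifiers of the 5 week libraries follow another style than those of the 3 and 8 week libraries, so age and library handling cannot be told apart where 5 weeks is compared with another age. The 8 activated fibroblast markers fell with age too, from 893 to 1490 summed CPM at 3 weeks to 357 to 373 at 8 weeks (5 of 8 called lower), and their part in the result was not tested.

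At 3 weeks no member passed the test between homozygous R14del and wild type hearts. With edgeR's quasi-likelihood test 0 of 40 members and 0% of the 13427 genes tested were called. At an unadjusted p under 0.05 there were 13 members, all lower, among 1515 genes, of which 761 were higher and 754 lower. DESeq2 called 0 members and 112 genes. The estimates leaned to lower levels in homozygous hearts, 37 of 40, with a median log2 difference of -0.82 against 0 over all genes.

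Mki67 was 2.85, 9.6, 17.6 and 3.65 CPM in the homozygous libraries at 3 weeks, set against 7.14, 29.8, 18 and 14.8 CPM in wild type. The groups overlapped, with homozygous replicates 1 and 4 below every wild type library and replicates 2 and 3 within the wild type range (log2 -1.09 ± 0.51, edgeR adjusted p = 0.461). Ccne1, cyclin E1, which opens S phase, was the only member whose groups did not overlap, which held for 6.42% of all genes (4.51% higher and 1.91% lower). It stood at 1.37, 0.457, 1.31 and 1.03 CPM in homozygous and 1.41, 2.61, 2.45 and 1.91 CPM in wild type hearts (log2 -1.02 ± 0.33, edgeR adjusted p = 0.331). Cdc20, an activator of the anaphase-promoting complex, had a log2 difference of -1.03 ± 0.32 (edgeR adjusted p = 0.301). Cdkn1a had 0.51 ± 0.29 (edgeR adjusted p = 0.533), the highest estimate of the 40. The members' median was -1.24 without homozygous replicate 3 and -0.54 without wild type replicate 2, and 0 members were called in either case. Homozygous replicate 3 also had the highest sum of the 8 fibroblast markers in its group, 5150 CPM against 3110 to 3830 CPM in the other 3 libraries, and the part of this in its high members was not tested.

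At 5 weeks 14 of 40 members were higher in homozygous hearts and 0 were lower, with a median log2 difference of 0.60 against 0 over all genes. Many genes differed at this age, as 43.7% of all genes tested were called, 22.3% higher and 21.4% lower. The rise took in Cdkn1a, E2f1, Ccne1, helicase genes and mitotic kinases, while the D-type cyclins, Cdk4 and the S and M phase cyclins did not pass the test. Cdkn1a was 97.7, 86.9, 96.1 and 103 CPM in homozygous and 46.1, 28.2, 34.1 and 36.7 CPM in wild type hearts. Every homozygous library stood above every wild type library, and the level was 2.29-fold higher (log2 1.20 ± 0.11, edgeR adjusted p = 6.53e-08). Cdkn2c differed by 0.12 ± 0.12 on the log2 scale (edgeR adjusted p = 0.446).

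Among the factors that act at the start of S phase, E2f1 was 5.87, 7.17, 4.7 and 6 CPM in homozygous libraries and 2.62, 2.74, 3.79 and 2.92 CPM in those of wild type. The E2f1 groups did not overlap (log2 0.77 ± 0.21, edgeR adjusted p = 0.00527). Ccne1 was 1.99, 2.61, 1.94 and 4.83 CPM against 1.21, 1.15, 1.53 and 1.59 CPM, again without overlap (log2 0.85 ± 0.32, edgeR adjusted p = 0.0417). Of the 9 replication genes 4 rose, namely Tyms (thymidylate synthase, log2 0.79 ± 0.21), Mcm5 (0.58 ± 0.21), Mcm6 (0.56 ± 0.14) and Mcm3 (0.52 ± 0.16). Mcm2, the other helicase subunit among the members, had 0.08 ± 0.15 (edgeR adjusted p = 0.706), at a mean of 14.3 CPM against 11.7 CPM.

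Of the 7 mitotic kinases and checkpoint genes 5 rose at 5 weeks (median over the 7 of 1.0). Birc5, the survivin subunit of the chromosomal passenger complex, was 2.99, 6.06, 4.09 and 8.86 CPM in homozygous and 2.06, 2.21, 1.81 and 2.67 CPM in wild type hearts, without overlap (log2 1.12 ± 0.29, edgeR adjusted p = 0.00434). Cdca8, another subunit of that complex, rose by 1.06 ± 0.35, and Bub1b, which guards the spindle checkpoint, by 0.78 ± 0.24. Plk1 was 1.89, 2.89, 1.64 and 6.98 CPM against 0.841, 0.707, 1.53 and 2.17 CPM. Its groups overlapped, as did those of Aurka and Cdca8 (Plk1 log2 1.14 ± 0.44, edgeR adjusted p = 0.0423). Aurkb, the kinase of the passenger complex, had 0.26 ± 0.41 and was not called.

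Anln, anillin, a scaffold of the contractile ring (ENSMUSG00000036777, chr9:22332012-22389188), had the largest estimate of the 40 at 5 weeks. Its level was 6.97, 8.39, 7.56 and 19.2 CPM in homozygous and 3.46, 5.74, 1.63 and 4.84 CPM in wild type hearts. The groups did not overlap, and homozygous replicate 4 stood far above the rest (log2 1.22 ± 0.32, edgeR adjusted p = 0.005). It was the 1 spindle gene of 7 that passed, and Cdca3 was the 1 of 3 mitotic exit genes (log2 1.06 ± 0.34, edgeR adjusted p = 0.0166). Mki67 was 16.5, 29.8, 15.9 and 54.8 CPM against 12.3, 18.4, 12.5 and 19.8 CPM, with overlap, and narrowly missed the threshold (log2 0.69 ± 0.28, edgeR adjusted p = 0.0559). Top2a (0.67 ± 0.31), Ccna2 (0.56 ± 0.28) and Ccnb1 (0.96 ± 0.50) were not called either. The 4 S and M phase members had a median of 0.62 with 0 of 4 called.

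**Figure D2:**
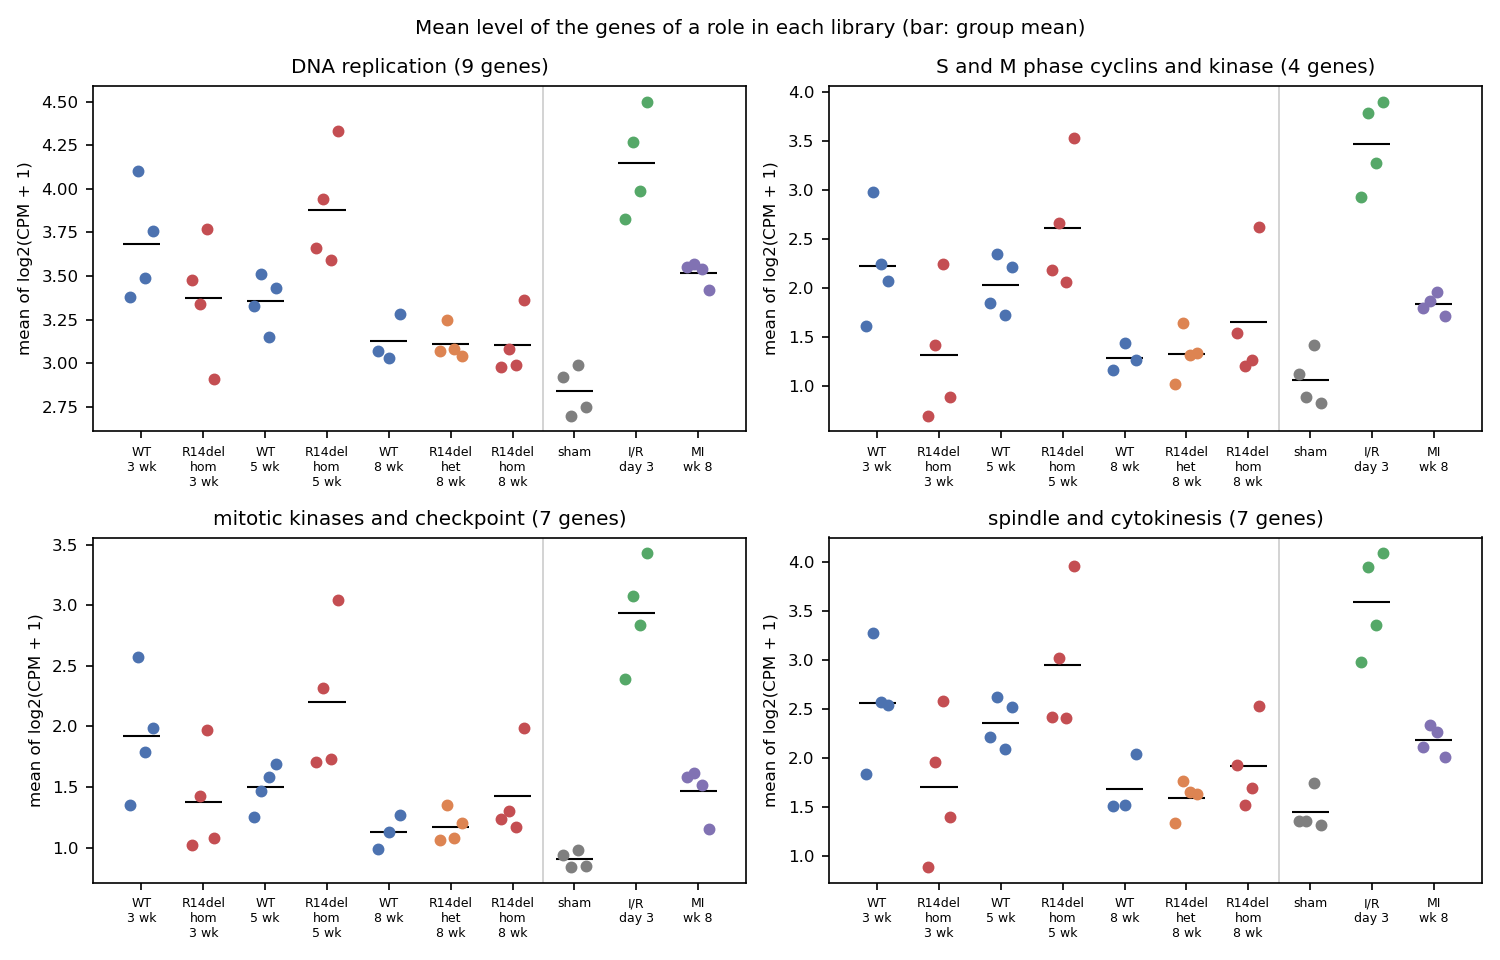
Mean log2(CPM + 1) over the members of 4 roles, with 1 point per library in each of the 10 groups. In the panel of 7 mitotic kinases and checkpoint genes the homozygous libraries at 5 weeks stand at 1.71 to 3.04 and those of wild type at 1.25 to 1.69.

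Homozygous replicate 4 carried much of the 5 week result. Without it 6 of 40 members were higher (Anln, Birc5, Cdkn1a, E2f1, Mcm6 and Tyms), 1 was lower (Ccnd1) and the median was 0.16. Over all genes that fit still called 5314, of which 52% were higher. A count of 6 of 40 is a smaller share than the 22.3% of all genes called higher with every library kept. Without homozygous replicate 2 the count of members higher was 9, and without replicate 3 it was 23, with 5254 and 5873 of all genes called. Under scaling by library size alone 27 members were higher and 79.2% of all calls lay on the higher side, against 2969 of 5821 with TMM. In the same hearts all 10 macrophage markers were called higher, at 2040 to 2650 summed CPM against 475 to 519 in wild type, as were 7 of 8 activated fibroblast markers, at 1150 to 2040 against 596 to 721, and 7 of 8 fibroblast markers, at 6530 to 7810 against 3040 to 3070. The 9 endothelial markers were all called lower (1070 to 1180 against 1560 to 1750), and 9 of 10 cardiomyocyte markers were lower (45900 to 53000 against 64700 to 67000). The part of these markers in the members' levels was not tested. In homozygous replicate 4 the activated fibroblast sum, 2040 CPM, was the highest of its group (1600, 1790 and 1150 in the others), while its macrophage sum, 2410 CPM, lay within the range of the other 3.

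At 8 weeks the homozygous hearts differed from wild type in 6 of 40 members, 3 higher (Cdkn1a, Anln, Cdkn2c) and 3 lower (Mcm2, Mcm5, Ccnd1). That is few beside the background, in which 59.8% of genes were called, 30.8% higher and 29% lower, and the members' median was 0.16 against 0.02 over all genes. Cdkn1a was 350, 326, 236 and 178 CPM in homozygous and 14.6, 23.7 and 32.4 CPM in wild type hearts. The lowest homozygous library stood far above the highest wild type library, and p21 mRNA was 10.6-fold higher (log2 3.40 ± 0.43, edgeR adjusted p = 2.48e-05). Cdkn2c was 12.6, 18.6, 18.5 and 15.6 CPM against 9.78, 10 and 10.9 CPM, also without overlap (log2 0.51 ± 0.12, edgeR adjusted p = 0.00247). Anln was 5.84, 8.84, 8.72 and 7.82 CPM against 2.28, 2.53 and 2.74 CPM, again without overlap (log2 1.46 ± 0.22, edgeR adjusted p = 8.71e-05).

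Among the members that fell at 8 weeks, Ccnd1 (ENSMUSG00000070348, chr7:144929931-144939925) was 73.3, 60.5, 64.4 and 78.4 CPM in homozygous and 101, 91.4 and 125 CPM in wild type hearts. No library overlapped, and the fall was 0.77 ± 0.13 on the log2 scale (edgeR adjusted p = 0.000283). Mcm2 was 7.18, 4.62, 4.05 and 5.49 CPM against 10.4, 10.8 and 13.2 CPM (log2 -1.25 ± 0.21, edgeR adjusted p = 0.000262). Mcm5 was 3.97, 2.95, 2.62 and 5.05 CPM against 5.93, 5.84 and 7.54 CPM (log2 -0.98 ± 0.21, edgeR adjusted p = 0.0016). The helicase subunits among the members did not move together. Mcm3 had 0.12 ± 0.16 and Mcm6 had 0.32 ± 0.13 (edgeR adjusted p = 0.0542), both with higher means in homozygous hearts. Mki67 was 5.43, 2.95, 4.73 and 14.3 CPM against 5.27, 7.59 and 8.02 CPM and was not called (log2 -0.20 ± 0.40, edgeR adjusted p = 0.684).

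Homozygous replicate 4 again stood above its group in Mki67 and in many mitotic genes. Without it 7 members were lower, with Mki67, Top2a, Cdk4 and Rrm1 joining the 3 above, and the same 3 were higher. Without wild type replicate 3, 5 were higher, with Bub1b and Mcm6 joining. All 6 calls were kept when any 1 library was left out. Macrophage markers summed to 1510 to 2980 CPM against 437 to 570 in wild type (10 of 10 called higher), activated fibroblast markers to 2160 to 3700 against 357 to 373 (7 of 8 higher), fibroblast markers to 7710 to 13000 against 2510 to 3000 (8 of 8 higher) and cardiomyocyte markers to 34700 to 51200 against 74700 to 79800 (7 of 10 lower), and their part in the result was not tested. In homozygous replicate 4 the activated fibroblast (3700 CPM), neutrophil (14.2) and smooth muscle and pericyte (893) sums were the highest of its group. Its macrophage (2920) and fibroblast (12200) sums lay below those of replicate 2 (2980 and 13000), and its endothelial sum (1020) was the lowest. Their part in its high members was not tested.

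The heterozygous hearts at 8 weeks gave 0 of 40 members and 0% of 14314 genes called against wild type by edgeR's quasi-likelihood test. At an unadjusted p under 0.05 there were 0 members among 326 genes, and DESeq2 called 0 genes. Estimates ran from -0.45 for Foxm1 to 0.99 for Bub1, with a median of -0.01. Cdkn1a was 16.8, 45.3, 14.9 and 18 CPM in the heterozygous libraries, with replicate 2 above the wild type range of 14.6 to 32.4 and the other 3 within it. Against heterozygous hearts the homozygous hearts had 4 members higher and 3 lower, with 61.9% of genes called, 32% higher and 30% lower: Cdkn1a (log2 3.36 ± 0.38), Anln (1.74 ± 0.20), Bub1b (0.71 ± 0.27) and Cdkn2c (0.48 ± 0.11), and Mcm2 (-1.37 ± 0.20), Mcm5 (-0.94 ± 0.20) and Ccnd1 (-0.73 ± 0.12). This comparison shares the homozygous libraries with the comparison against wild type and is no separate evidence. Without homozygous replicate 4 it had 7 members lower, again with Mki67, Top2a, Cdk4 and Rrm1, and Bub1b lost its call without any of 5 single libraries.

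The difference between homozygous and wild type hearts itself shifted between 3 and 5 weeks. An interaction test, which asks whether the genotype difference is the same at both ages, called 22 of 40 members higher at 5 weeks and 0 lower, with 20.4% of all genes called, 11.1% higher and 9.29% lower, and a members' median of 1.39. Ccnb1, cyclin B1, had the largest estimate, 2.62, followed by Bub1 (2.58) and Cdca3 (2.42). Ccnb1 was 0.386, 3.19, 1.65 and 0.765 CPM in wild type and 0.106, 0.392, 1.02 and 0.385 CPM in homozygous hearts at 3 weeks, then 0.747, 1.77, 0.271 and 0.918 CPM and 0.995, 1.4, 1.33 and 4.56 CPM at 5 weeks. At each age these groups overlapped. The Ccnb1 and Bub1 estimates rest on few counts. The homozygous libraries at 3 weeks held 2, 6, 18 and 6 counts for Ccnb1 and 8, 8, 23 and 0 for Bub1. Ccnb1 is also among the genes whose counts are uncertain because of pseudogenes. The count rests on several libraries: it was 5 (Anln, Ccne1, Cdca3, Mcm5 and Mcm6) without homozygous 5 week replicate 4, 6 without wild type 3 week replicate 2, 9 without homozygous 3 week replicate 4, and 10 without homozygous 3 week replicate 1 or wild type 5 week replicate 1. It was 12 without wild type 5 week replicate 3 and 14 without homozygous 5 week replicate 2. Over all genes 2589 were called (51.2% of them higher) without homozygous 5 week replicate 4. Without wild type 3 week replicate 2 there were 2468 (50.3% higher), against 3042 with every library kept. A count of 5 of 40 is near the 11.1% of all genes called higher in the full fit. The test used 1 fit of all 39 libraries, including those after surgery. In a fit of the 27 libraries without surgery 18 members were higher.

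Between 5 and 8 weeks the genotype difference rose for Cdkn1a (interaction log2 2.23, edgeR adjusted p = 0.000721) and fell for Ccne1 (-1.38), Mcm2 (-1.30) and Mcm5 (-1.53). That is 4 of 40 members, with 28.2% of all genes called, 14.4% higher and 13.8% lower. Cdkn1a was the 1 member called higher, and Cdkn2c joined it without homozygous 5 week replicate 4 and without homozygous 8 week replicate 1 or 4. Without homozygous 8 week replicate 4, 5 members were lower, with Cdk4 and Top2a added. Ccne1 lost its call without wild type 5 week replicate 2, homozygous 5 week replicate 4, wild type 8 week replicate 2 or 3, or homozygous 8 week replicate 2, which left Mcm2 and Mcm5.

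**Figure D3:**
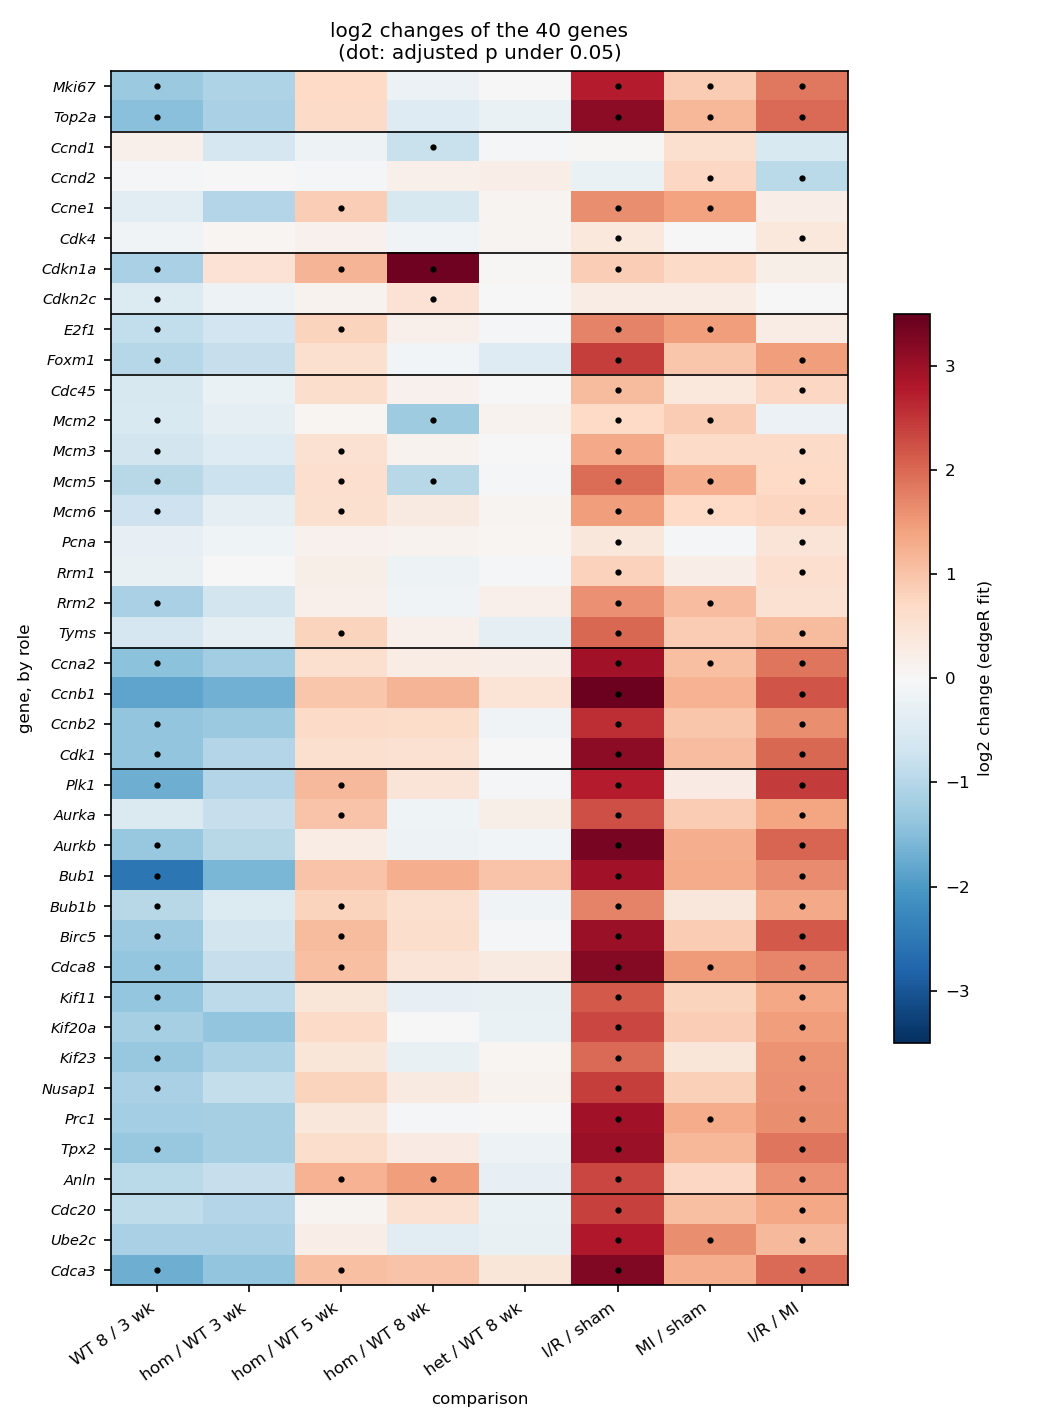
Log2 changes of the 40 members (lines, ordered by role) in 8 comparisons (columns) as colours, with a dot where the edgeR adjusted p was under 0.05. The column of ischemia-reperfusion against sham carries 37 dots, while that of homozygous against wild type hearts at 8 weeks carries 6, on Cdkn1a, Anln, Cdkn2c, Mcm2, Mcm5 and Ccnd1.

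At 3 days after ischemia-reperfusion nearly the whole set rose in the remote ventricle: 37 of 40 members were higher than in shams and 0 lower, with a median log2 change of 2.29 against -0.02 over all genes. Of all genes tested 31% were called, 16.9% higher and 14.1% lower. On CPM, without TMM scaling, the groups did not overlap in 37 members, all higher, and in 31.1% of all genes (28.3% higher and 2.81% lower). Mki67 was 22.3, 45.9, 29.4 and 47.3 CPM after ischemia-reperfusion and 3.95, 2.87, 6.55 and 4.55 CPM in shams. Every operated library stood above every sham, and the rise was 6.74-fold (log2 2.75 ± 0.25, edgeR adjusted p = 3.1e-06). Top2a (ENSMUSG00000020914, chr11:98992943-99024189) rose from 2.87, 1.38, 4.97 and 1.88 CPM to 19.5, 33.9, 22 and 44 CPM, 8.78-fold (log2 3.14 ± 0.32, edgeR adjusted p = 5.61e-06).

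The largest rises were in M phase genes. Ccnb1 was 3.49, 6.41, 4 and 5.86 CPM after ischemia-reperfusion and 0.628, 0.376 and 0.495 CPM in sham replicates 1, 3 and 4. Sham replicate 2 had 0 counts for Ccnb1, which allows a level of up to 0.319 CPM at 3 counts. The fitted rise was 3.42 ± 0.43 (edgeR adjusted p = 3.45e-05). Aurkb was 3.65, 7.92, 6.73 and 8.15 CPM against 0.717, 0.213, 0.903 and 0.297 CPM, 9.94-fold higher and without overlap (log2 3.31 ± 0.40, edgeR adjusted p = 2.76e-05). Cdca3 rose by 3.24 ± 0.36, Cdca8 by 3.20 ± 0.36, Cdk1, the kinase of mitotic entry, by 3.12 ± 0.34 and Birc5 by 3.03 ± 0.40. Plk1 (2.76 ± 0.38), Bub1 (2.95 ± 0.48), Aurka (2.25 ± 0.33) and Bub1b (1.74 ± 0.26) completed the kinase and checkpoint group. Among the spindle genes the motor proteins Kif20a, Kif11 and Kif23 rose by 2.33, 2.14 and 1.97, and the microtubule proteins Tpx2, Prc1 and Nusap1 by 3.02, 2.93 and 2.43. Anln rose by 2.34 ± 0.28, from 1.35 to 3.07 CPM in shams to 9.61 to 18 CPM. All members of the S and M phase (4 of 4, median 3.03), mitotic kinase (7 of 7, median 2.95), spindle (7 of 7, median 2.34) and mitotic exit roles (3 of 3, median 2.79) were called higher.

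All 9 replication genes rose after ischemia-reperfusion too, with a lower median of 1.33 and a wide range, and this difference in size between roles was not tested. Mcm5 rose from 4.39, 2.66, 4.22 and 2.57 CPM to 11.3, 17.8, 11.8 and 23.2 CPM (log2 1.96 ± 0.24, edgeR adjusted p = 2.81e-05) and Tyms rose by 2.01 ± 0.28. Rrm2 rose by 1.60 ± 0.25, Mcm6 by 1.46, Mcm3 by 1.33, Cdc45, which joins the loaded helicase and helps to activate it, by 1.11 and Rrm1 by 0.82. Pcna, the sliding clamp of DNA polymerase, rose by 0.41 ± 0.11 (edgeR adjusted p = 0.0102) and Mcm2 by 0.69 ± 0.17. Both transcription factors rose, Foxm1 from 1.61, 1.28, 1.96 and 1.29 CPM to 5.11, 10.8, 10 and 13.7 CPM (log2 2.43 ± 0.31, edgeR adjusted p = 4.58e-05) and E2f1 by 1.73 ± 0.30. Neither group pair overlapped.

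At the G1 step, Ccne1 rose by 1.63 ± 0.32 and Cdk4 by 0.36 ± 0.10, while the D-type cyclins did not pass the test. Ccnd1 was 79.6, 83.1, 101 and 99.9 CPM after ischemia-reperfusion and 88.7, 58, 104 and 51.4 CPM in shams, with overlap (log2 0.03 ± 0.18, edgeR adjusted p = 0.924). Ccnd2 was 117, 98.4, 110 and 160 CPM against 151, 99.9, 119 and 111 CPM (log2 -0.22 ± 0.14, edgeR adjusted p = 0.275). Cdkn1a rose by 0.87 ± 0.28 (edgeR adjusted p = 0.0287) from 18.7, 12.2, 31.6 and 18.8 CPM to 37.4, 64, 44 and 31.1 CPM. The Cdkn1a groups overlapped in 1 library of each group, and the call was lost when any of 5 single libraries was left out or with shams aged 12 weeks alone. Cdkn2c, the third member not called, had 0.27 ± 0.15 (edgeR adjusted p = 0.205), although its groups did not overlap.

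The macrophage markers summed to 1280 to 2080 CPM after ischemia-reperfusion and 290 to 516 in shams (10 of 10 called higher), and the neutrophil markers to 28.8 to 52.2 against 3.4 to 8.32 (4 of the 4 tested). Activated fibroblast markers summed to 878 to 2330 CPM against 216 to 404 (6 of 8 higher), and fibroblast markers to 4880 to 7680 against 2170 to 3170 (5 of 8 higher, 1 lower). Cardiomyocyte markers summed to 44000 to 52000 CPM against 55300 to 63900 (9 of 10 lower), and endothelial markers to 1060 to 1290 against 1060 to 1210 (2 of 9 lower). The part of these markers in the rise of the members was not tested. With any 1 library left out 36 or 37 members were higher, and against the shams aged 12 weeks alone it was 35.

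At 8 weeks after infarction 13 of 40 members were higher than in shams and 0 lower, with a median of 0.90 against 0 over all genes. Of all genes 11.4% were called, 6.62% higher and 4.77% lower. The groups did not overlap in 23 members, all higher, and in 17.5% of all genes (13.4% higher and 4.04% lower). The members called were Mki67, Top2a, Ccnd2, Ccne1, E2f1, Mcm2, Mcm5, Mcm6, Rrm2, Ccna2, Cdca8, Prc1 and Ube2c. They include 4 of 9 replication genes, 1 of 7 mitotic kinases and checkpoint genes and 1 of 7 spindle genes, and the difference between roles was not tested. Aurka, Kif11, Kif20a and Anln were not called, although each lay above the shams in every library. This comparison uses the same 4 shams as the one above. Ccnd2, cyclin D2, was 188, 266, 195 and 215 CPM after infarction and 151, 99.9, 119 and 111 CPM in shams. No library overlapped (log2 0.73 ± 0.14, edgeR adjusted p = 0.00507).

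E2f1 was 3.66, 3.97, 3.91 and 4.27 CPM after infarction and 1.08, 0.851, 2.18 and 0.99 CPM in shams, a narrow band well above every sham (log2 1.47 ± 0.30, edgeR adjusted p = 0.00675). Mcm2 was 17.7, 17.4, 17.3 and 19.3 CPM against 10.2, 8.83, 10.1 and 6.24 CPM, also without overlap (log2 0.90 ± 0.17, edgeR adjusted p = 0.00378). Ube2c, the ubiquitin-conjugating enzyme of mitotic exit, was 1.53, 2.77, 4.97 and 2.48 CPM against 0.269, 0.851, 1.43 and 0.891 CPM, the largest estimate of the 40 (log2 1.64 ± 0.45, edgeR adjusted p = 0.0285). Cdca8 had 1.49 ± 0.39. Mki67 was 11.4, 8.02, 9.38 and 7.94 CPM against 3.95, 2.87, 6.55 and 4.55 CPM, without overlap (log2 0.90 ± 0.27, edgeR adjusted p = 0.0428), and it lost this call without any 1 library other than sham replicate 3. Plk1, with 1.19, 2.03, 1.85 and 0.512 CPM against 0.987, 1.38, 1.2 and 0.594 CPM, overlapped and was not called (log2 0.30 ± 0.44, edgeR adjusted p = 0.704).

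The infarction result depended on single libraries and on the shams. The count was 8 without infarction replicate 2 or 3 and 7 without sham replicate 2 or 4, and Ccnd2, Ccne1, E2f1, Mcm2, Mcm5, Prc1 and Rrm2 were called in all 4 cases. Calls over all genes fell as well, from 1550 to 663 and 1145 in the infarction cases and to 789 and 1133 in the sham cases. Against the shams aged 20 weeks alone 3 members were called, Ccnd2, Mcm2 and Mcm5, with a members' median of 0.75 and 853 of all genes called. Macrophage markers summed to 490 to 743 CPM against 290 to 516 (2 of 10 called), activated fibroblast markers to 808 to 1930 against 216 to 404 (5 of 8), fibroblast markers to 3290 to 4890 against 2170 to 3170 (5 of 8) and neutrophil markers to 3.66 to 14.8 against 3.4 to 8.32 (0 of 4), and their part was not tested.

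Set directly against infarction, ischemia-reperfusion had 32 of 40 members higher and 1 lower, with a median of 1.37 and with 20.1% of all genes called, 11.2% higher and 8.84% lower. The groups did not overlap in 30 members on the higher side and 2 on the lower, and in 25.7% of all genes (20.5% higher and 5.17% lower). Plk1 had the largest difference, at 4.3, 9.7, 7.93 and 11.5 CPM after ischemia-reperfusion against the infarction levels above (log2 2.45 ± 0.36, edgeR adjusted p = 0.000298), followed by Ccnb1 (2.21 ± 0.36). Mki67 differed by 1.85 ± 0.23 and Top2a by 1.98 ± 0.28, and every mitotic kinase, spindle and mitotic exit member was called higher. The 1 member called lower was Ccnd2 (log2 -0.95 ± 0.14, edgeR adjusted p = 0.000381). E2f1 (0.25 ± 0.26), Mcm2 (-0.21 ± 0.16), Ccne1 (0.22 ± 0.28), Rrm2 (0.52 ± 0.23), Cdkn1a (0.21 ± 0.27), Cdkn2c (0.00 ± 0.14) and Ccnd1 (-0.52 ± 0.18) did not pass the test. The groups also differ in age and in time since surgery, which cannot be told apart from the kind of ligation.

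Other genes of the cell cycle, taken from lists that hold none of the 40, were counted in the same fits. These lists too were chosen with earlier results of these data known. Over all genes 16.9% were higher and 14.1% lower after ischemia-reperfusion, and 6.62% higher and 4.77% lower after infarction. After ischemia-reperfusion 25 of 33 genes of DNA replication and S phase were higher and 0 lower (median 0.79), among them Clspn, a mediator of the replication checkpoint (log2 3.33 ± 0.40). Of 50 other mitosis genes 43 were higher and 1, Pttg1 (securin), was lower (median 2.41), with Cenpe, a kinetochore motor, at 3.48 ± 0.33 and Hmmr at 3.02. After infarction the mitosis list had 13 of 50 higher and 1 lower (median 0.80). The gene that fell was Cenpf, a kinetochore protein, by 1.31 ± 0.28. The replication list had 1 higher (Clspn) and 1 lower (Dut, which clears dUTP).

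In homozygous hearts at 5 weeks 10 of 33 replication genes were higher and 2 lower (median 0.42), and 6 of 49 mitosis genes were higher and 3 lower (median 0.54). Over all genes 22.3% were higher and 21.4% lower, so the mitosis list had smaller shares called than the background in both directions. Tk1, thymidine kinase, rose by 0.97 ± 0.22 and Ncapg2, a condensin subunit, by 1.09 ± 0.19, while Gmnn, geminin, which blocks repeat licensing of replication origins, fell by 0.82. At 8 weeks the same lists were split, with 8 higher and 9 lower of 33 and 6 higher and 6 lower of 49. These shares lie below those over all genes, 30.8% higher and 29% lower. Cenpf fell by 1.95 ± 0.28, and Dut by 1.17. At 3 weeks 0 genes of these lists and 0% of all genes were called, with list medians of -0.38 and -0.86.

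Targets of p53, the factor that induces Cdkn1a after DNA damage, were counted as a list of 18 without Cdkn1a. In homozygous hearts 10 were higher and 2 lower at 5 weeks (median 0.38), and 9 were higher and 3 lower at 8 weeks (median 0.57). Over all genes 22.3% were higher and 21.4% lower at 5 weeks, and 30.8% higher and 29% lower at 8 weeks. At 5 weeks Phlda3 rose by 1.20 ± 0.09, Eda2r by 1.14 and Btg2 by 0.77, while Ccng1 fell by 0.56. At 8 weeks Pmaip1, a promoter of apoptosis, rose by 2.46 ± 0.30, Plk2 by 1.35 and Fas by 0.94, while Ccng1 fell by 0.89 and Gadd45a by 0.72. After ischemia-reperfusion 4 were higher and 1 lower (median 0.16), and after infarction 1 was higher and 1 lower (median 0.11). Of all genes 31% and 11.4% were called in these comparisons. Among 8 other G1 cyclins, kinases and inhibitors, Cdkn2b (p15, log2 1.61 ± 0.41) and Cdkn2d (p19, 0.37) were higher in homozygous hearts at 8 weeks and 0 were lower. At 5 weeks 1 of 7 was called, Cdkn1c (p57), which fell by 1.21 ± 0.15.

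Of 18 genes of the E2F, RB and DREAM families, which carry the control described at the start, at most 8 passed in the comparisons given here. Over all genes 31% were called after ischemia-reperfusion, and 43.7% and 59.8% in homozygous hearts at 5 and 8 weeks. After ischemia-reperfusion 5 were higher and 3 lower (median 0.05), with E2f2 at 2.66 ± 0.38, Rbl1 (p107) at 1.24 and Rbl2 (p130) at -0.43. In homozygous hearts 3 were higher and 3 lower at 5 weeks (median 0.07), with E2f8 at 0.96, Mybl2 at 0.93 and Tfdp2 at -0.86, and 4 were higher and 3 lower at 8 weeks, with Rbl1 at -0.88.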

How the data were processed

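Per the labels' protocols, Trizol was used to extract RNA and the libraries came from the stranded TruSeq mRNA kit. Reads were handled with STAR 2.7.3a and featureCounts of Subread 2.0.0 on mm10, per the submitters' processing notes. Strand setting and annotation: not given in the sources used here. The deposited table holds the authors' raw counts per gene for 39 libraries in 10 groups. Of 38293 identifiers 36345 were named through GENCODE vM21, and those without a name held 0.133% of the counts.

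Each comparison was fitted over all genes passing filterByExpr with edgeR 4.0.16 (TMM scaling, quasi-likelihood test, Benjamini-Hochberg adjustment, threshold 0.05) in R 4.3.3 with limma 3.58.1. The fit held the compared groups or, for shared controls, the groups of that set. Interactions were tested in 1 fit of all 39 libraries, including those after surgery. The fits were tested on simulated counts. Intervals from counting are not given, and 3 counts were taken as the limit of a level at 0.

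The 40 members, the other gene lists and the marker lists were chosen with earlier results of these data known. Values in each library are given for up to 17 leading members and, in each comparison, for the called members with the largest rises and falls. In the other lists, called genes with the smallest p were named. Alternatives were other scaling, DESeq2 1.42.0, other filters, 1 fit of all libraries (for interactions, of the 27 without surgery), age-matched shams, a replicate block and each library left out. Replicate numbers did not pair the samples: of 32 same-numbered pairs 1 had a correlation of deviations over 0.1 (-0.089 to 0.2).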

Additional observations from a re-analysis of the deposited data

Results flagged for a closer look

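Among 17 members in 9 groups of 4 libraries, 153 sets were screened for a library far from the other 3, and 14 were found. Chance gives about 1 in 20 for independent sets of normally distributed values. Several flags fell on the same library, so the sets are not independent and 14 cannot be set against that rate. Homozygous replicate 4 at 8 weeks was highest in 4 of them: Foxm1 at 5.68 CPM, Cdk1 at 6.5 CPM, Birc5 at 4.16 CPM and Cdc20 at 6.37 CPM. Homozygous replicate 4 at 5 weeks was highest for Ccnb1 at 4.56 CPM and for Anln at 19.2 CPM. Homozygous replicate 3 at 3 weeks was highest for Ccnd2 at 225 CPM and for E2f1 at 5.11 CPM. Cdkn1a was highest in wild type replicate 2 at 3 weeks, at 75.6 CPM, and in heterozygous replicate 2 at 8 weeks, at 45.3 CPM. Sham replicate 3 was highest for E2f1 at 2.18 CPM, and sham replicate 2 was lowest for Rrm2 at 2.23 CPM. Wild type replicate 1 at 5 weeks was highest for Mcm5 at 8.41 CPM, in a group whose other libraries lie at 7.93 to 7.95 CPM, and replicate 2 was highest for Aurkb at 2.65 CPM.

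The difference between homozygous and wild type hearts shifted upwards from 3 to 5 weeks by the interaction test for 22 members. The values are signed log2 shifts and do not say that the difference grew in size. For Mki67 it went from -1.09 to 0.69. Among the proliferation markers and G1 and S phase genes they were 1.76 for Mki67, 1.79 for Top2a, 1.85 for Ccne1, 1.42 for E2f1, 0.83 for Cdc45, 0.95 for Mcm3, 1.31 for Mcm5, 0.90 for Mcm6 and 1.13 for Tyms. Among the mitotic cyclins and kinases they were 1.76 for Ccna2, 2.62 for Ccnb1, 1.97 for Ccnb2, 2.14 for Plk1, 1.80 for Aurka, 2.58 for Bub1, 1.25 for Bub1b, 1.76 for Birc5 and 1.86 for Cdca8. Among the spindle and exit genes they were 2.02 for Kif20a, 1.76 for Tpx2, 2.02 for Anln and 2.42 for Cdca3. From 5 to 8 weeks the difference shifted by 2.23 for Cdkn1a, -1.38 for Ccne1, -1.30 for Mcm2 and -1.53 for Mcm5. The counts of these calls depend on single libraries, as given above.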

How the results depend on the processing

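No called member changed sign under an alternative: of the values of called members 2445 kept the call and 358 lost it. Members not called in the fits above gained a call in 216 values, and their values that stayed without a call were not counted. With no filter on low counts, members higher in homozygous hearts at 5 weeks numbered 27 (1 lower, Ccnd1), higher after infarction 20, lower in ischemia-reperfusion against infarction 2, and lower in wild type 13 from 3 to 5 weeks and 15 from 5 to 8 weeks. By library size alone they numbered 27 at 5 weeks and 8 higher in homozygous against heterozygous hearts. DESeq2 gave 22 after infarction and 2 lower in ischemia-reperfusion against infarction. With all 39 libraries in 1 fit, 9 were higher at 5 weeks, and 2, 0 and 8 lower in wild type from 3 to 5, 5 to 8 and 3 to 8 weeks. Calls over all genes fell in each of these comparisons too. Shams of matched age gave 3 after infarction, where calls over all genes fell too. With the replicate block, lower members numbered 2 in ischemia-reperfusion against infarction and 8 for the genotype difference of 8 against 5 weeks, and 19 were higher at 5 weeks. The numbers do not pair the samples, so the block is no paired analysis. For the sham comparisons no block was fitted because sham numbers follow accession order. The shallowest library held 9402900 counts, and members near 1 CPM were read there from few counts.

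With each library left out in turn, members higher ranged from 6 to 23 (lower 0 to 1) at 5 weeks, 3 to 5 (lower 3 to 7) in homozygous against wild type and 3 to 5 (lower 3 to 7) against heterozygous hearts at 8 weeks, 36 to 37 after ischemia-reperfusion, 7 to 19 after infarction and 28 to 33 (lower 1 to 1) between these. In wild type, members lower ranged from 2 to 16 (higher 0 to 1), 2 to 10 and 13 to 31 for 3 to 5, 5 to 8 and 3 to 8 weeks. For the genotype difference the ranges were 5 to 31 higher for 5 against 3 weeks, and 1 to 2 higher and 2 to 5 lower for 8 against 5 weeks.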
